A study of Drosophila melanogaster with 3 samples.

Results

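The cytosolic ribosomal protein genes of Drosophila melanogaster were examined for binding of Elba2 in the early embryo. They were taken by symbol from the Ensembl annotation as every protein-coding gene whose name is Rp, then L or S, an optional P and a number. This gave 92 of the 13968 protein-coding genes on the chromosome arms used, 54 of them named for the large ribosomal subunit and 38 for the small subunit. Chromatin bound by Elba2 was immunoprecipitated and sequenced (ChIP-seq) in a single group of 3 biological replicates. The replicates were embryos aged 0 to 4 h, of both sexes pooled, from a transgenic line labelled CG9883-GFP that stably carries Elba2 with a C-terminal GFP, pulled down with an antibody to GFP. All 3 replicates carried the fusion protein, and the promoter that drives it is not given in the sources used here. No untagged or other condition was in the design, so the comparisons are between genes, and the replicates give the error. The sample was the whole embryo, so the lists average over cell types.

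A gene was called bound when the summit of a peak in the authors' optimal, replicate-controlled set lay within 500 bp of any of its annotated transcription start sites (TSSs). The optimal set held 3276 peaks. The permissive list from the pooled replicates held 28496 regions, and the lists of replicates 1, 2 and 3 held 29295, 30000 and 30000. The pooled list is labelled as peaks and background together, so a region in it need not mean binding. Regions were ranked within each list by the authors' signal value, whose scale is not stated, with rank 1 the strongest. Of the 3276 optimal peaks, 3274 were among the highest of the pooled list, so the set was close to a cut in pooled rank. Of them, 1844 were found in every replicate. In a replicate, a gene counted as high when one of the 3276 strongest regions of that list had its summit at a start. Read numbers were not used, so the depth is unknown, and whether the replicates came from separate collections is known only from their label as biological replicates.

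Ribosomal proteins assemble with ribosomal RNA into subunits that need every protein in matching amounts, and in flies the loss of a copy of many of these genes gives the Minute phenotype of slow growth and short bristles. Fly ribosomal protein genes are known for a pyrimidine-rich initiator at the start site, the TCT motif, and for promoters at which M1BP and Dref, the factor that binds the DNA replication-related element (DRE), have been found. Elba2 is a subunit of the ELBA complex of the early embryo, known from chromatin boundary activity, and the ELBA and Insensitive BEN-domain proteins are known for binding short CCAAT-containing words.

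The following stretches of the Release 6 genome (dm6) show the DNA under Elba2 summits at ribosomal protein genes. Each runs 5′ to 3′ along the gene's own strand, covers at most 100 bases on either side of the summit, and was trimmed to its longest part outside untranslated regions. Capitals mark any of the 5 words searched on both strands: the ELBA site CCAATAAG, the Insensitive palindrome CCAATTGG, the M1BP site GGTCACAC, the DRE TATCGATA and the GAGA repeat GAGAGAGA. The first 5 are bound genes with a DRE or the palindrome, namely RpS10b (chrX:19597659-19597859, plus strand), RpL28 (chr3L:3222961-3223138, minus strand), RpS25 (chr3R:11216288-11216451, minus strand), RpL34a (chr3R:26059268-26059397, minus strand) and RpL17 (chrX:6743426-6743626, minus strand).
RpS10b: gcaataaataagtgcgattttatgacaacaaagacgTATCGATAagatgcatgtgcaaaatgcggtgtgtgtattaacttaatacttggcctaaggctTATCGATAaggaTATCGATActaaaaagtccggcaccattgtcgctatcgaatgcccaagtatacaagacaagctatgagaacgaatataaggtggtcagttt
RpL28: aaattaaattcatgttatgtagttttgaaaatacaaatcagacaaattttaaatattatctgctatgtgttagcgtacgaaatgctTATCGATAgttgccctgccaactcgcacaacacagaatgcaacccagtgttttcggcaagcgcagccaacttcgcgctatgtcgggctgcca
RpS25: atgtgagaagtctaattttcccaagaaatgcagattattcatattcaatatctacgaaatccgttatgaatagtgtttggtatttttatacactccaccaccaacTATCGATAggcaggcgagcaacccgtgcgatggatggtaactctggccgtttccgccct
RpL34a: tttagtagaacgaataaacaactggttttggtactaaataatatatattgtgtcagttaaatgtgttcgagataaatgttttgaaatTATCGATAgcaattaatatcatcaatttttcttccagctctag
RpL17: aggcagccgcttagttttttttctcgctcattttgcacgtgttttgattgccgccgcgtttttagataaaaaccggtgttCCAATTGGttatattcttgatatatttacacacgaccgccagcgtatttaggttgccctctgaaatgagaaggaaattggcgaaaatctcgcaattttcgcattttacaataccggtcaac

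The next 4 are bound genes with high signal in whose window none of the 5 words was found: RpL9 (chr2L:11003799-11003999, minus strand), RpL34b (chr3R:9401227-9401365, minus strand), RpS26 (chr2L:18443432-18443632, minus strand) and RpL23A (chr3L:1668683-1668883, minus strand). RpL34b is shown for comparison with its paralogue RpL34a.
RpL9: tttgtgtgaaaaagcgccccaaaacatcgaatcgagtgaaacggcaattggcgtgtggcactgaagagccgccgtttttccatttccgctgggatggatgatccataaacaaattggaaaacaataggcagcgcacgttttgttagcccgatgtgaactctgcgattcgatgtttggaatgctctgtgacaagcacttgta
RpL34b: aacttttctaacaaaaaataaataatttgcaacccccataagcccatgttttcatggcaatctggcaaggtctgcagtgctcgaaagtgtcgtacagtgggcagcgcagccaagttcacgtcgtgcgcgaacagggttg
RpS26: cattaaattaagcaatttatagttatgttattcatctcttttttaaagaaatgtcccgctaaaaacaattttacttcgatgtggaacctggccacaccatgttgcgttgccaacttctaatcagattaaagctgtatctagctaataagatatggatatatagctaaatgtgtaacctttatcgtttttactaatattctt
RpL23A: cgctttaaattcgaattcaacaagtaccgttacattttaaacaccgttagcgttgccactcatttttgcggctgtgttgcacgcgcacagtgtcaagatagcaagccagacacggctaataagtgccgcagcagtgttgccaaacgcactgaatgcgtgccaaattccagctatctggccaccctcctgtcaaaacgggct

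The last is RpL37-1 (chrX:15139368-15139492, minus strand), an unbound gene that fell just outside the optimal set and holds a DRE. It is shown because the word occurred at bound and unbound genes alike.
RpL37-1: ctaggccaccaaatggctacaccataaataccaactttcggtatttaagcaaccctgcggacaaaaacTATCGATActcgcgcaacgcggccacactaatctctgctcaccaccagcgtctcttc

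Nearly all ribosomal protein genes had some region of the pooled list at a start, and 36 had one in the optimal set. Of the 92 genes, 36 were bound (39.1%, exact 95% interval 29.1 to 49.9), against 2495 of 13968 protein-coding genes (17.9%, interval 17.2 to 18.5). A further 47 ribosomal protein genes had only a weaker pooled region, so that 83 had any pooled region (90.2%), against 7432 of all protein-coding genes (53.2%). The 9 without one included RpL40, made as a fusion with ubiquitin, RpL7A and RpL35 of the large subunit and RpS15 of the small one. The other 5 were the paralogues RpL10Aa, RpL37-2, RpS15Aa, RpS19b and RpS28-like. Within 500 bp RpL10Aa and RpL35 had a region in no list, while RpL40 had weak regions in all 3 replicates, at ranks 25813, 26268 and 20692. RpS15 was at rank 5483 in replicate 1 and 6645 in replicate 3, with no region in replicate 2.

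Each replicate gave a similar picture. The share of ribosomal protein genes high in replicates 1, 2 and 3 was 39.1%, 35.9% and 33.7% (mean 36.2% ± 2.74, SD, n = 3), against 18.7%, 17.4% and 16.0% of all protein-coding genes (17.4% ± 1.35). The lowest replicate of the ribosomal protein genes was above the highest of all protein-coding genes. Any region, strong or weak, stood at 92.4%, 90.2% and 85.9% of ribosomal protein genes in the 3 lists, against 53.8%, 50.9% and 51.5% of all protein-coding genes. With 3 replicates a two-sided sign-flip test cannot give a p below 0.25, so none was run, and the shares are described by their spread. Of the 92 ribosomal protein genes, 24 were high in all 3 replicates and 48 in none. Of the 13968 protein-coding genes, 1522 were high in all 3 and 10560 in none. Across the 70 with a region in every replicate list, ranks correlated with Spearman's rho of 0.810 between replicates 1 and 2, 0.744 between 1 and 3 and 0.681 between 2 and 3. Over the 5245 protein-coding genes with a region in every list, the values were 0.776, 0.706 and 0.678. These describe genes within the same libraries, which are not independent points.

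**Figure D1:**
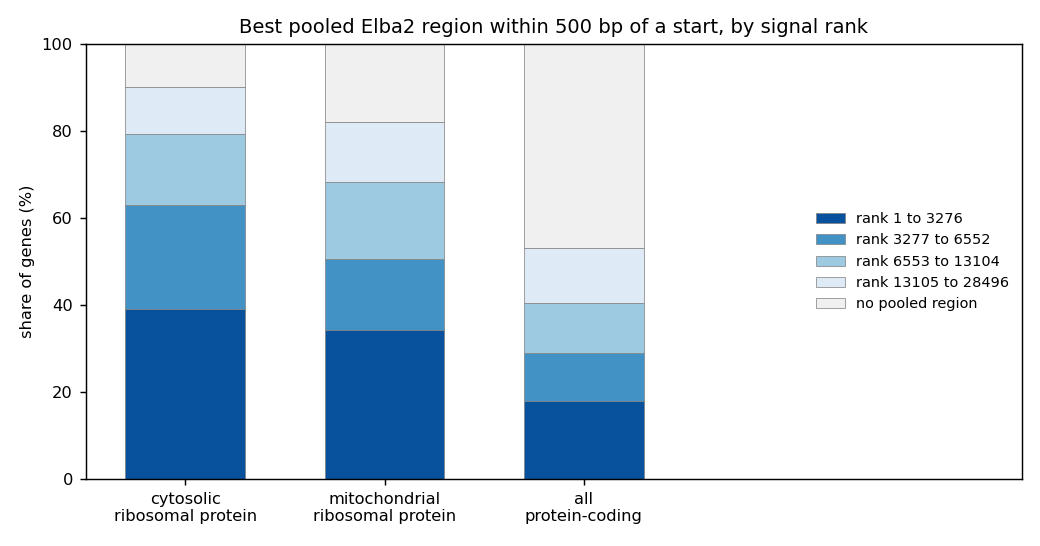
Stacked bars give the share of genes (%) by the signal rank of their best pooled Elba2 region within 500 bp of a start, for cytosolic ribosomal protein genes (n = 92), mitochondrial ribosomal protein genes (n = 73) and all protein-coding genes (n = 13968). The darkest segment is the optimal set, 39.1%, 34.2% and 17.9% from left to right, and the top segment is genes with no pooled region.

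Ribosomal protein genes were more frequent than all protein-coding genes in the strong and middle ranks of the pooled list. Beyond the 36 in ranks 1 to 3276, 22 (23.9%) had their best region at ranks 3277 to 6552, against 11.2% of all protein-coding genes, and 15 (16.3%) at ranks 6553 to 13104, against 11.4%. In the weakest ranks, 13105 to 28496, were 10 ribosomal protein genes (10.9%), against 12.7% of all protein-coding genes. Their median best rank was 3921, among those with a region, against 5680 for all protein-coding genes with a region. Within the optimal set their median rank was 1614, against 1455 for all bound protein-coding genes. With the ranks of the set cut into 3 equal parts, 14 of the 36 were in the strongest part (38.9%, against 38.3% of all bound protein-coding genes) and 12 in the weakest (33.3%, against 28.4%).

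The strongest ribosomal protein gene was RpL29, a small protein of the large subunit, on arm 2R with its summit at 21293793. Its pooled signal was 493 at rank 84, and it ranked 103, 60 and 172 in replicates 1, 2 and 3. RpLP0-like, the fly relative of the yeast assembly factor Mrt4, followed with signal 408 at rank 165, from a summit at 2R:10099945 and replicate ranks of 462, 120 and 88. Both were far up in every replicate, and both share their start region with another gene. RpL9, at the base of the large subunit's stalk region, had signal 319 at pooled rank 345 and replicate ranks of 230, 474 and 666. Its summit, at 2L:11003899, lay in the gene's own intron. It was 254 bp downstream of the nearest start, the largest such downstream distance among the bound genes. RpL41, the smallest ribosomal protein, had signal 302 at rank 390, with replicate ranks of 432, 436 and 301 and the summit at 2R:24904062. RpL34b had signal 299 at rank 397, with replicate ranks of 453, 311 and 523 and the summit at 3R:9401265. These 3 were likewise in the upper ranks of each list.

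RpS10b, on the beak of the small subunit, was the strongest small-subunit gene, with signal 284 at pooled rank 445, replicate ranks of 369, 527 and 640, and a summit at X:19597759, 272 bp upstream of the start. RpL9 and RpS10b were the only bound ribosomal protein genes with 2 optimal summits within 500 bp. RpL8, which lies close to the peptidyl transferase centre, had its summit 6 bp inside the gene (3L:2587462), with signal 267 at rank 529 and replicate ranks of 278, 823 and 664. RpL7 (2L:10201069) had signal 245 at rank 646 and replicate ranks of 484, 954 and 1182. The small-subunit protein gene RpS26, whose product lines the mRNA exit, had signal 221 at rank 804 and replicate ranks of 750, 695 and 1762 (summit 2L:18443532). RpL23A, a protein of the rim of the peptide exit tunnel, closed the first 10 with signal 208 at rank 917 and replicate ranks of 1704, 1223 and 561 (summit 3L:1668783). All 10 were high in all 3 replicates, but they were chosen by a pooled signal made from these same replicates. By symbol 8 of the 10 are named for the large subunit, as are 54 of the 92 genes and 24 of the 36 bound ones.

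**Figure D2:**
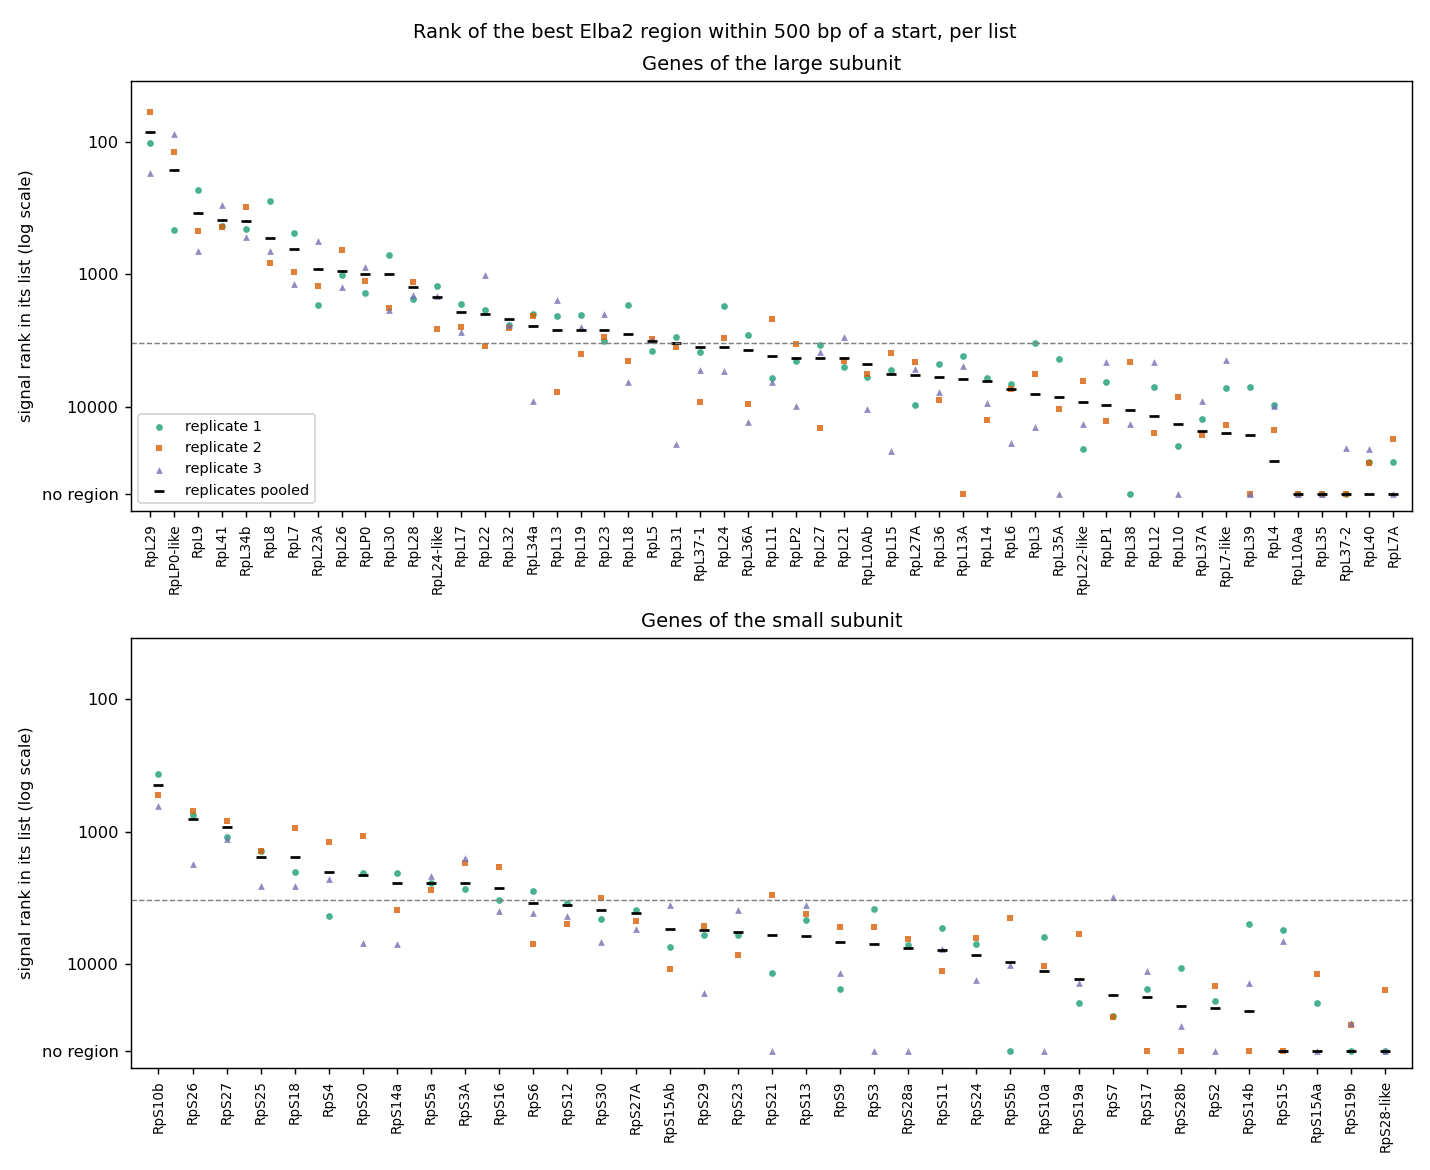
Each column is 1 ribosomal protein gene (2 of the 92 are not drawn), with the signal rank of its best region within 500 bp of a start on a reversed log axis in replicates 1 to 3 (coloured points) and in the pooled list (black dash), for the large subunit above and the small subunit below. The dashed line is rank 3276, the size of the optimal set, and points on the lowest line mark genes with no region in that list, such as RpL10Aa and RpL35 in all 4 lists.

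At the edge of the call, the values ran on without a gap. The weakest bound genes were RpL18 with signal 119, RpL5, a partner of the 5S ribosomal RNA, with 111 (rank 3152; 3757, 3050 and 3119 in the replicates), and RpL31 of the exit tunnel rim with 109. The strongest unbound genes were RpS6, the target of S6 kinase, with 106 (rank 3446; 2808, 7033 and 4113), RpL37-1 with 105 (rank 3501) and RpL24 with 104 (rank 3549). RpL31 ranked 2942, 3512 and 18869 in the replicates, so only replicate 1 placed it high, and RpL18 ranked 1689, 4480 and 6418. RpL24, though unbound, ranked 1721, 3007 and 5308 and was high in 2 of 3 replicates. Among bound genes 24 were high in all 3 replicates, 7 in 2 and 5 in 1. Of the unbound genes, 8 were high in at least 1 replicate, among them RpL11, RpS21, RpS30 and RpS7.

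Both subunits were bound, the large one in the higher share. Of the large-subunit genes 24 of 54 were bound (44.4%, exact interval 30.9 to 58.6), against 12 of 38 of the small-subunit genes (31.6%, 17.5 to 48.7), and these intervals overlap. Per replicate, 46.3%, 37.0% and 38.9% of large-subunit genes were high (40.7% ± 4.90, SD, n = 3), against 28.9%, 34.2% and 26.3% of small-subunit genes (29.8% ± 4.02). The large subunit was higher in 3 of 3 replicates, by 17.3, 2.83 and 12.6 percentage points, and the gap in replicate 2 was smaller than either SD. Weaker regions evened this out. Any pooled region stood at 49 large-subunit genes (90.7%) and 34 small-subunit genes (89.5%), while the median best rank was 3501 for the large and 5478 for the small subunit.

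The genes were also set out by the place of their products in the ribosome, a grouping made after the values were seen. Its counts are small descriptions, to be read beside the 44.4% of large-subunit genes, 31.6% of small-subunit genes and 17.9% of all protein-coding genes that were bound. Of 7 proteins at the rim of the peptide exit tunnel, 5 had a bound gene: RpL17, RpL19, RpL23A, RpL26 and RpL31. Within 500 bp RpL39 had only a weak pooled region, at rank 16337, and RpL35 none. These calls depend on the distance, as both had an optimal summit within 1000 bp of a start. RpL17 was not bound within 250 bp or with canonical transcripts. In the stalk that recruits translation GTPases, the gene of the base protein RpLP0 was bound (rank 986; 1369, 1128 and 874 in the replicates). Those of RpLP1, RpLP2 and RpL12 were not, at pooled ranks of 9591, 4236 and 11723. Around the peptidyl transferase centre RpL8 was bound, and RpL3, RpL4 and RpL10 stood at pooled ranks of 7987, 25638 and 13336. Of the 2 partners of the 5S RNA, RpL5 was bound and RpL11 was at rank 4096.

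In the small subunit, where 31.6% of genes were bound, none of 5 genes for proteins on the mRNA entry and decoding side was, a number too small to set apart from that share. RpS30, made as a fusion with a ubiquitin-like protein, came nearest at rank 3921, followed by RpS23 at 5676, RpS9 at 6740, RpS3 at 7079 and RpS2 at 21391. On the mRNA exit side 3 of 7 were bound, RpS5a, RpS14a and RpS26. Of 3 head proteins that reach towards the tRNA or the other subunit, RpS16 (rank 2671) and RpS18 (rank 1565) were bound and RpS15 had no pooled region. RpS27A, made as a fusion with ubiquitin, was unbound at rank 4078, so that none of the 3 fusion genes was bound. RpL32, the gene widely used as a reference in fly transcript measurements, was bound at rank 2179 and ranked 2410, 2550 and 2411 in the replicates.

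Sharing a start region with a neighbour went with binding. Another protein-coding gene had a TSS within 500 bp at 37 ribosomal protein genes (40.2%), against 30.8% of all protein-coding genes, and for 36 of the 37 a neighbour lay on the opposite strand. The exception was RpS27A, whose only such neighbour, Ip259, is on the same strand. Of these 37 genes 22 were bound (59.5%, exact interval 42.1 to 75.2), against 14 of the 55 with no such neighbour (25.5%, 14.7 to 39.0). Over all protein-coding genes the same split gave 36.9% (1588 of 4309) with a shared start and 9.39% (907 of 9659) without one. Ribosomal protein genes were thus above all protein-coding genes in both classes. In replicates 1, 2 and 3, 56.8%, 45.9% and 40.5% of the sharing genes were high, against 27.3%, 29.1% and 29.1% of those not sharing, a gap of 29.5, 16.9 and 11.4 points.

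Sharing genes were higher in every replicate, but the size of the gap varied by more than 2-fold. Without replicate 1, that is with optimal peaks found in both other replicates, 13 sharing genes (35.1%) were bound, against 13 not sharing (23.6%), and the gap was 11.5 points, against 34.0 with the full optimal set. The same step over all protein-coding genes gave 23.9% and 6.16%, a gap of 17.7 points, against 27.5 with the full set. In the 3 replicates the gap over all protein-coding genes was 29.1, 26.7 and 21.9 points. The split held in both subunits, at 15 of 22 (68.2%) against 9 of 32 (28.1%) in the large one and at 7 of 15 (46.7%) against 5 of 23 (21.7%) in the small one. At any pooled region the difference was smaller, with 36 of the 37 sharing genes and 47 of the 55 others. A summit between 2 nearby starts lies within reach of both, so binding at the ribosomal protein gene and at its neighbour cannot be told apart there. All 22 summits lay within 500 bp of the neighbour's start as well, 14 of them nearer to the ribosomal protein gene and 8 nearer to the neighbour.

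**Figure D3:**
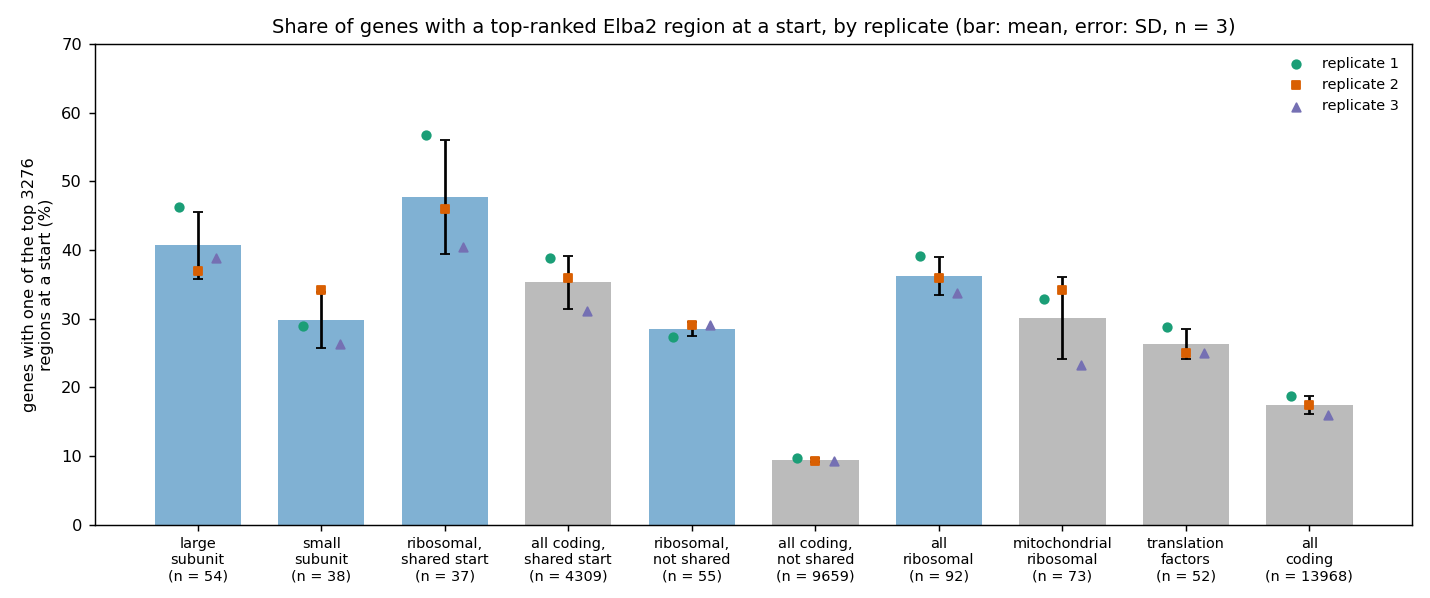
Bars give the mean share of genes (%) with one of the 3276 strongest regions of a replicate at a start, with the SD over 3 replicates, and coloured points give each replicate. Blue bars are classes of ribosomal protein genes and grey bars the genes set beside them, with shared and unshared starts at 47.7% and 28.5% for ribosomal protein genes and 35.3% and 9.37% for all protein-coding genes.

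The neighbours at the bound shared starts are genes of many kinds, and no list of them was tested. RpL28 and eIF1, a factor of start codon selection, shared a summit 78 bp upstream of RpL28 and 303 bp from eIF1, at pooled rank 1245 and replicate ranks of 1532, 1134 and 1442. RpL13 and Dref, which encodes the DRE-binding factor, shared one at rank 2611 that lay 336 bp from the RpL13 start and 252 bp from that of Dref, in the Dref 5′ untranslated region. Its replicate ranks were 2043, 7681 and 1567, low in replicate 2. RpL34a and Trmt61, a tRNA methyltransferase subunit, shared one at rank 2464 (1971, 2069 and 9056), 30 bp from RpL34a and 199 bp from Trmt61. RpL29 was paired with Sgf29, a component of the SAGA coactivator, its summit 147 bp from the Sgf29 start. RpLP0-like was paired with 14-3-3zeta, an adaptor protein gene, and the summit lay in a 14-3-3zeta intron, 355 bp from RpLP0-like and 268 bp from 14-3-3zeta. RpL41 was paired with NaCP60E, a sodium channel gene, whose start was nearer to the summit (55 bp) than that of RpL41 (127 bp).

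RpS27 and the nucleoporin gene Nup37 shared a summit at rank 925 (1097, 827 and 1143), 12 bp upstream of RpS27 and 132 bp from Nup37. RpS18 and plu, a regulator of DNA replication in the early embryo, shared one at rank 1565 (2022, 948 and 2587), 40 bp from RpS18 and 346 bp from plu. RpS14a and Dhdds shared one at rank 2452 (2062, 3911 and 6972), 296 bp from RpS14a and 95 bp from Dhdds. RpL7 shared its summit with Ripalpha, at 95 bp from that start and 31 bp from its own. At RpL24-like (rank 1486; 1215, 2599 and 1453), whose yeast counterpart is an assembly factor, the summit was 288 bp upstream and only 12 bp from the start of CG5276. RpL18 (rank 2835) was paired with Neos, at 179 bp and 98 bp, and RpS20 with CG17271, at 223 bp and 110 bp (rank 2142; 2041, 1082 and 6877). At RpS14a, RpL24-like, RpL18 and RpS20 the neighbour's start was the nearer.

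Further shared starts had their summit nearer to the ribosomal protein gene. RpS25 with CG4820 was at rank 1563 (1394, 1414 and 2576), 64 bp from RpS25 and 184 bp from CG4820. RpL19 with CG3776 was at rank 2618 (2011, 3970 and 2486), at 10 bp and 141 bp. RpS16 was paired with CG4294 (replicate ranks 3290, 1859 and 3940), at 60 bp and 400 bp. The distances were 104 bp and 232 bp for RpLP0 with CG7130, 138 bp and 171 bp for RpL32 with CG7943, 39 bp and 230 bp for RpL34b with CG8132, and 57 bp and 422 bp for RpL31 with CG12929, the ribosomal protein gene's own distance given before its neighbour's. Among the 15 sharing genes that were not bound were RpL36 with Mybbp1A (rank 5915), RpS13 with CSN8 (rank 6094), RpL14 with Nelf-E (rank 6333) and RpL4 with BCAS2 (rank 25638). RpS19b with CG5854 was the only sharing gene with no pooled region.

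Summits stood close to and mostly upstream of the nearest annotated start. Over the 36 bound ribosomal protein genes the median signed distance was −79.5 bp along the direction of transcription and ranged from −359 to 254 bp, against a median of −84.0 bp over all bound protein-coding genes. The summit was upstream at 31 genes (86.1%), against 75.4% of all bound protein-coding genes, and within 100 bp at 20 (55.6%), against 43.6%. All 12 bound small-subunit genes had it upstream, at a median of −72.5 bp, and 19 of the 24 large-subunit genes did, at −82.0 bp. Upstream here is relative to the nearest annotated start, not to the whole gene. At RpS16, RpS18, RpL5, RpL7, RpL17 and RpLP0 the summit lay inside the gene, downstream of an earlier start of that gene. The median was −71.0 bp at shared starts and −83.5 bp at the others, against −97.5 bp and −59.0 bp over all bound protein-coding genes, an order that is the other way round. Of the 36 summits, 21 lay between genes, 8 in a 5′ untranslated region and 7 in an intron, and all 36 were distinct. The same counts over all bound protein-coding genes are not given here, so these places are not read as particular to the class. The weaker regions at the other 47 genes stood closer, at a median of −36.0 bp. Fragments of 200 to 800 bp limit how well a summit marks the contact.

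**Figure D4:**
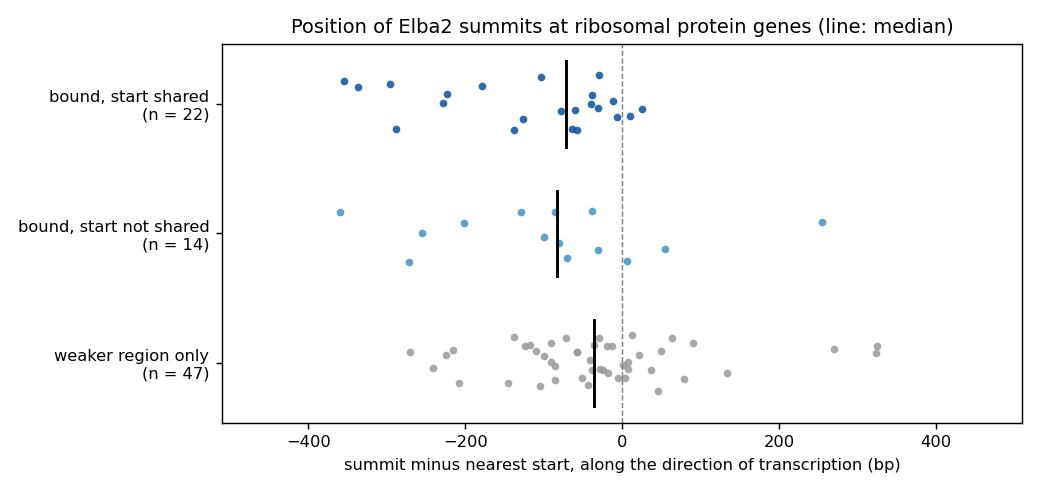
Each point is 1 ribosomal protein gene, placed by the distance (bp) from its nearest TSS to the summit of its best region, negative upstream. The rows are bound genes with a shared start (n = 22), bound genes without one (n = 14) and genes with a weaker region only (n = 47), and the black lines mark their medians of −71.0, −83.5 and −36.0 bp.

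Paralogues by symbol were bound together in some families, singly in others and not at all in the rest. By symbol 27 of the genes fell into 13 families of 2 or 3, and 10 of the 27 were bound (37.0%), against 26 of the 65 genes without a paralogue (40.0%). Both genes were bound in 2 families, a single gene in 6 and none in 5. The RpL34 pair was bound at both, RpL34b at rank 397 and RpL34a at 2464, with a DRE only in the RpL34a window printed above. The RpLP0 family was bound at both as well, with RpLP0-like (rank 165) above RpLP0 (rank 986) in each replicate. Since RpLP0-like encodes an assembly factor relative and not a ribosome component, it is a paralogue by symbol and descent.

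In 4 of the 6 families with a single bound gene, the paralogues stood well apart in their ranks within 500 bp of a start. RpS10b was at replicate ranks of 369, 527 and 640, while RpS10a was at 6206 and 10323 with no region in replicate 3. RpL7 was at 484, 954 and 1182, against 7188, 13630 and 4390 for RpL7-like, a relative of a yeast assembly factor. RpL22 was at pooled rank 1990 (1849, 3437 and 1008), against 9156 (20516, 6389 and 13500) for RpL22-like, known mainly from the testis. RpS5a was at rank 2454 (2437, 2736 and 2161), against 9536 for RpS5b, known from the ovary, which had no region in replicate 1 and ranked 4488 and 10093 in the others. These 4 families were grouped by these same ranks, so their separation is a description only. In them every replicate rank of the bound gene was above every one of its paralogue, which did not hold for the RpL24 and RpS14 families. Of 4 genes known mainly from the germ line, RpL22-like, RpS5b, RpS10a and RpS19b, none was bound. They were grouped after the values were seen. Bound shares were 37.0% of the genes with a paralogue and 17.9% of all protein-coding genes. A group of 4 is too small to set apart from either share, and RpS10a was bound at a start distance of 1000 bp.

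The other families with a single bound gene were closer or less certain. RpL24-like was bound (1215, 2599 and 1453) and RpL24, the ribosome component, was just outside (1721, 3007 and 5308), with RpL24-like ahead in every replicate. RpS14a was bound at rank 2452 and RpS14b was at 22277, with replicate ranks of 4994 and 13888 and no region in replicate 2. These genes are near-identical tandem copies, and only 87.0% and 86.0% of the 36-base words around their starts occur once in the genome arms, against a median of 100% over the 92 genes. Reads from RpS14a and RpS14b can therefore be hard to place. RpS15Ab, at rank 5426, had 83.0% and was the only other gene under 90%.

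In the 5 families with no bound gene, a single gene had the best pooled rank and the others ranked far below or had no region. RpL10Ab was at rank 4735 (5953, 5603 and 10378) while RpL10Aa had no region. RpL37-1 was at rank 3501 (3817, 9159 and 5270), and RpL37-2 had a region only in replicate 3, at 20196. RpS15Ab was at 7407, 10872 and 3547 in the replicates, and RpS15Aa had weak regions at 19492 and 11897 in replicates 1 and 2. RpS19a was at rank 12855 (19483, 5909 and 13787), and RpS19b was at 28763 and 27509 in replicates 2 and 3. RpS28a was at rank 7582, with 7205, 6428 and no region in replicate 3, RpS28b was at 20707 (10602, none and 29112), and RpS28-like had a region only in replicate 2, at 15546.

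**Figure D5:**
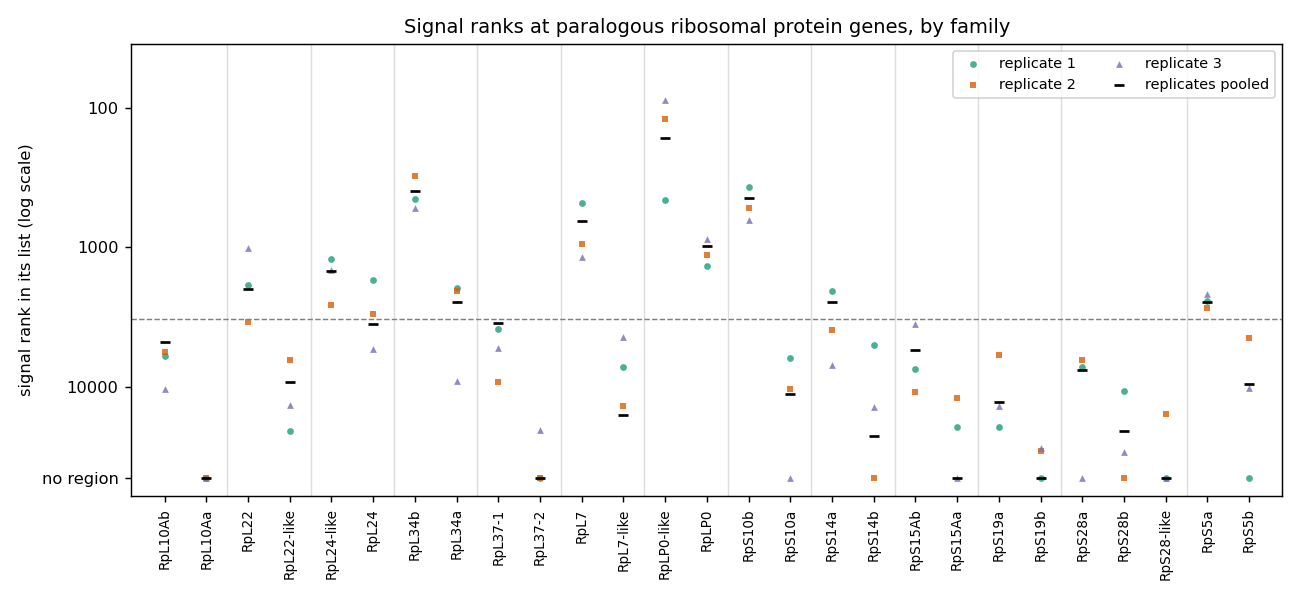
Signal ranks (reversed log axis) of the 27 ribosomal protein genes with a paralogue, in replicates 1 to 3 and in the pooled list, with vertical lines between the 13 families. Points above the dashed line at rank 3276 are in the top regions, and both genes of the RpL34 and RpLP0 families have their pooled dash above it.

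Of the 5 words searched, the DRE was the most frequent under the summits and the ELBA site was not found there. None of the 36 summits had an ELBA site within 100 bp, a count that allows a share of up to 8.33% (3 of 36), against 6.90% of all 3276 optimal summits and 4.99% of the 1724 at protein-coding starts. At this number of summits a share like that of the other promoters could not have been told from 0. The Insensitive palindrome was at 2 summits (5.56%, against 9.16% of all and 7.77% at protein-coding starts). These were RpL29, 21.5 bp from the summit, and RpL17, 16.5 bp from it. The DRE was at 8 summits (22.2%, against 5.34% and 8.82%), with 10 copies in all at a median of 15.0 bp from the summit. Among the 8 were RpL19, RpL26, RpL28, RpL34a, RpL41, RpS10b and RpS25. RpS10b alone had 3 copies, at 1.5, 13.5 and 60.5 bp, which are the capitals of its sequence above.

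The M1BP site was at 4 summits (11.1%, against 6.72% of all optimal summits and 10.7% at protein-coding starts), those of RpL24-like, RpL30, RpL7 and RpLP0. The GAGA repeat was at none (2.93% of all and 2.09% at protein-coding starts). At least one of the 5 words was found at 14 summits (38.9%), against 28.3% of all optimal summits and 30.9% at protein-coding starts, so the windows of 22 bound genes held none of them. A word in a window is a description of the sequence and does not show that its factor was there.

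In promoters the DRE was about as common at bound as at unbound ribosomal protein genes. In the promoter from 250 bases before to 50 after the canonical start, it was found at 11 of 36 bound genes (30.6%) and 17 of 56 unbound genes (30.4%). The level was 8.94% over 13967 protein-coding promoters and 15.6% over the promoters of all bound protein-coding genes. The M1BP site was at 3 bound (8.33%) and 10 unbound genes (17.9%), against 7.53% of all protein-coding promoters and 15.8% of those of all bound protein-coding genes. CTTT beginning within 5 bases of the start on the sense strand, a form of the TCT initiator searched after the values were seen, was at 16 bound (44.4%) and 26 unbound genes (46.4%), against 5.72% of all. The ELBA site was in 3 of the 92 promoters, all of unbound small-subunit genes, RpS10a, RpS12 and RpS24, against 0.988% of all. The palindrome was in that of RpL29 alone, against 0.974% of all.

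A further feature of the class is that introns of many ribosomal protein genes hold small nucleolar RNAs. By annotation 28 of the 92 genes (30.4%) held one on their own strand, against 0.601% of all protein-coding genes. Of the 28 hosts 12 were bound (42.9%), against 24 of the 64 others (37.5%). Over all protein-coding genes 30 of 84 hosts were bound (35.7%), against 17.8% of the others. By chromosome arm, 6 of 19 genes were bound on 2L (31.6%, against 16.8% of all protein-coding genes there), 9 of 21 on 2R (42.9%, against 17.9%) and 7 of 14 on 3L (against 19.0%). On 3R it was 8 of 23 (34.8%, against 19.8%) and on X 5 of 14 (35.7%, against 15.1%). The single gene of chromosome 4, RpS3A, was bound, against 13.8% of all there.

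The cytosolic ribosomal protein genes were set beside other genes of protein synthesis. Against their 39.1%, 25 of 73 mitochondrial ribosomal protein genes were bound (34.2%, exact interval 23.5 to 46.3), and the intervals overlap. Replicate shares were 39.1%, 35.9% and 33.7% for the cytosolic genes, against 32.9%, 34.2% and 23.3% for the mitochondrial ones. The cytosolic genes were higher in 3 of 3 replicates, though in replicate 2 by less than the SD of either class. A start was shared at 40.2% of them, against 74.0% of the mitochondrial genes. Within shared starts 59.5% of the cytosolic genes were bound (interval 42.1 to 75.2), against 22 of 54 mitochondrial genes (40.7%, 27.6 to 55.0). Within unshared ones it was 25.5% (14.7 to 39.0), against 3 of 19 (15.8%, 3.38 to 39.6). The intervals overlap in both classes. At shared starts 56.8%, 45.9% and 40.5% of the cytosolic genes were high in replicates 1, 2 and 3, against 38.9%, 42.6% and 27.8% of the mitochondrial ones. The DRE, at 8 of 36 cytosolic summits, was at none of the 25 mitochondrial ones, a count that allows a share of up to 12.0%. In promoters it was at 28 of 92 cytosolic genes (30.4%), against 15 of 73 mitochondrial genes (20.5%) and 8.94% of all. Of 52 translation factor genes 15 were bound (28.8%), including eIF2Bepsilon (rank 251), eIF6, which keeps free large subunits from joining small ones (rank 614), and eIF4E1, the cap-binding protein (rank 815). RNA polymerase I genes were bound at 2 of 7, Polr1B and Polr1D. The list of 14 further genes, mostly regulators, had 4 bound (28.6%, against 17.9% of all protein-coding genes): Irbp18 (rank 109), M1BP (rank 1521), Rheb (rank 2030) and Dref, through the summit it shares with RpL13. This list also holds sta, the fly gene of the ribosomal protein RpSA, which the rule by symbol leaves out of the 92 genes. It was unbound, at pooled rank 14450, with ranks 9949 and 15544 in replicates 1 and 3 and no region in replicate 2.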

How the data were processed

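Elba2-eGFP was measured by ChIP-seq in 3 biological replicates of embryos. Per the file headers and deposited notes, the authors called a permissive list of regions for each replicate and for the pooled replicates, against a control, and derived the optimal set by irreproducible discovery rate (IDR). The aligner, peak caller and threshold are not stated in any source used here, and the control was not used here. The authors' deposited signal column, of unstated scale, was used only to rank regions within a list. The dm6 lists were used, and the dm3 lists were not used here.

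The members and lists were chosen with earlier results of these data known. Genes came from Ensembl release 115, and sequence from the Release 6 genome. Coordinates are 1-based. A region was assigned to a gene if its summit lay within 500 bp of any TSS. A replicate was read at its 3276 strongest regions. Exact 95% intervals (Clopper-Pearson) treat genes as independent and take in counting error alone. No set test was run. By rule, values per gene went to the 10 strongest bound genes, paralogues, bound genes with shared starts and the 3 genes on either side of the limit, and summit positions are printed for the strongest only. Other distances, transcripts, neighbours and word windows, stricter peak choices and each replicate left out were tried as alternatives. Scripts (Python 3.11.15, pandas 2.3.3, numpy 2.4.6, scipy 1.17.1) were tested on simulated data. The symbol Tor was not matched. For 2 of the ribosomal protein genes, counted in all totals, individual values are not reported here.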

Additional observations from a re-analysis of the deposited data

How the results depend on the processing

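Shares of bound ribosomal protein genes stayed above those of all protein-coding genes under each alternative for the peak set, distance, transcript and replicates. With the strongest 1638 optimal peaks, 18 genes were bound (19.6%, against 1400 of 13968 protein-coding genes), 13 in the large and 5 in the small subunit and 11 with a shared start. Leaving out a replicate (the optimal peaks found in both others) can only remove genes. Without replicates 1, 2 and 3 in turn, 28.3%, 29.3% and 28.3% were bound, against 11.6%, 12.4% and 13.8% of all protein-coding genes. These were 26 to 27 genes, 17 to 19 in the large and 8 to 9 in the small subunit. Of them, 13 to 15 had a shared start, the 13 without replicate 1, and 11 to 13 had none. Peaks found in every replicate left 24 genes (26.1%, against 10.7%), 13 of them with a shared start. A neighbour within 250 bp left 13 bound genes of 19 with a shared start (68.4%), against 35.5% of all protein-coding genes with one. Of the 73 ribosomal protein genes without one, 23 were bound (31.5%). With a neighbour within 1000 bp it was 28 of 58 (48.3%), against 30.1% of all such genes, and 8 of 34 without one (23.5%). The mean replicate share was 19.2% for the 1638 strongest regions of a replicate and 89.5% for all regions. For all regions, 53.8%, 50.9% and 51.5% of all protein-coding genes had one in replicates 1, 2 and 3. Their share for the 1638 strongest is not given here. Within 50 bp of the summits the M1BP site was at 1 gene, and within 200 bp the ELBA site was at 2, RpL5 and RpS10b. A start distance of 250 bp gave 30 bound genes (32.6%, against 14.5% of all protein-coding genes) and 1000 bp gave 42 (45.7%, against 21.0%). Lost at 250 bp were RpL13, RpL17, RpL24-like, RpLP0-like, RpS14a and RpS26. Gained at 1000 bp were RpL35, RpL39, RpS10a, RpS12, RpS14b and RpS28b. Canonical transcripts lost RpL17 and gave 35 (38.0%, against 16.2% of all protein-coding genes). Leaving out the 5 symbols ending in -like gave 34 of 87 (39.1%). No paired analysis was possible because the study has a single group. Depth is unknown, so its effect on weak regions was not measured.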
